A study of Mus musculus with 4 samples.

Results

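Glucocorticoid receptor (GR) signal was examined at intergenic regions of the mouse liver genome that carried a ChIP-seq region both after dexamethasone and after vehicle. A region belonged to this set when the dexamethasone and vehicle regions overlapped one to one by at least 1 bp. The dexamethasone region also had to lie on an autosome or the X chromosome, overlap no promoter (any TSS, from 2000 bp before it to 200 bp after it) and have its centre in no transcript and within 100 kb of the TSS of a protein-coding gene. There were 1122 such regions among 5665 shared regions (19.8%), and the region sets held 31343 dexamethasone and 5883 vehicle regions. The regions were selected on the peak calls made from the reads of both treatments, so their signal in each group is a description. The position criteria used no reads.

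There were 2 ZT18 Dex and 2 ZT18 Vehicle libraries from livers of male mice aged 6 to 8 weeks, kept on a 12:12 h light-dark cycle. Water-soluble dexamethasone (1 mg/kg) or its cyclodextrin carrier was injected into the peritoneum, and the liver was taken 1 h later, at ZT18, in the dark phase. Both groups are labelled as Hnf4a fl/fl Alb-Cre +/-. In such mice Cre is driven by the albumin promoter and would delete Hnf4a in hepatocytes. The methods of the study describe C57BL/6 mice instead, and the data used here do not settle which applies. Each library pooled 3 immunoprecipitation reactions made with a cocktail of GR antibodies, and it is not stated whether the libraries of a group were from different animals. Whole liver was used, so more cells with bound receptor and more receptor per cell cannot be told apart.

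GR is a nuclear receptor that moves from the cytoplasm to chromatin when it binds a glucocorticoid. Corticosterone is the endogenous ligand in mice, and dexamethasone is a synthetic agonist. GR binds as a dimer to the glucocorticoid response element (GRE), an inverted repeat of 2 half-sites 3 bases apart, and it also sits at sites of other hepatocyte factors such as HNF4A, FOXA and C/EBP proteins. Many of its sites in liver lie far from promoters, and the nearest gene need not be the gene such a site acts on.

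Library totals were 64169077 and 65097597 reads in Dex, against 91494606 and 29179899 in Vehicle. Of these reads, 6.35% and 7.79% fell into the dexamethasone regions in the Dex libraries, and 1.04% and 1.35% into the vehicle regions in the Vehicle libraries. Signal is given as RPKM, reads scaled by the width of the region and the reads of the library. Median reads per intergenic region were 232 and 307.5 in Dex, against 130 and 53 in Vehicle, so Vehicle replicate 2 was the least precise. Replicates ranked the 1122 regions with a Spearman's rho of 0.914 in Dex and 0.644 in Vehicle, a description across regions, which are not independent replicates. Replicate 2 exceeded replicate 1 at 1000 regions in Dex and at 856 in Vehicle, by a median log2 difference of 0.39 and 0.35.

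The consensus GRE was searched as AGAACA, 3 bases of any kind and TGTTCT, on either strand, in the 200 bp about each region's centre. A full match stood in 3 of the 1122 windows (0.267%), against 0 of 2244 windows of the same width 2 kb to either side. The full matches of the regions nearest to Ddit4 and Mapk13 are shown with those best matches that differ from the consensus at 1 of its 12 fixed bases and lie in the regions with most Dex signal among them. Each stretch is 75 bases of the plus strand of GRCm38 (RefSeq), with the 15-base best match in capitals.
Ddit4, chr10:59974243-59974317: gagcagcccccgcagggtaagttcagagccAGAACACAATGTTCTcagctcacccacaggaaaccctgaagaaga
Mapk13, chr17:28761119-28761193: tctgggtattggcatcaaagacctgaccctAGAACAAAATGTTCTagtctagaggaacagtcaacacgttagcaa
Ahcy, chr2:155052790-155052864: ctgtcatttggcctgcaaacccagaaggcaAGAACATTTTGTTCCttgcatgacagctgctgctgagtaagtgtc
Slc25a51, chr4:45411579-45411653: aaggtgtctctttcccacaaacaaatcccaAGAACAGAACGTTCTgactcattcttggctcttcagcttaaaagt
Jade2, chr11:51874346-51874420: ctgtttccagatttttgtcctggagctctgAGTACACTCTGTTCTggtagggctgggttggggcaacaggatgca
Errfi1, chr4:150755542-150755616: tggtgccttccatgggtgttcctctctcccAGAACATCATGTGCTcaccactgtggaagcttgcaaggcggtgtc
Arl4a, chr12:40016979-40017053: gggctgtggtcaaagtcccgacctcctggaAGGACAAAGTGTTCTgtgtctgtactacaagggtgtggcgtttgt

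The GR signal at these elements differed widely. The region with the Ddit4 element, at -22.5 kb from the TSS of this stress-induced inhibitor of mTORC1, had 18.9 and 24.5 RPKM in Dex, against 5.34 and 8.08 in Vehicle, and rose by a log2 fold change of 1.71 ± 0.46 (SE; edgeR quasi-likelihood test, adjusted p = 0.00856). The region with the Mapk13 element, near a p38 kinase gene, had 17.0 and 20.3 RPKM in Dex, against 6.44 and 13.4 in Vehicle; the log2 fold change was 0.92 ± 0.43 and missed the threshold (edgeR adjusted p = 0.136). The Ahcy region lies at 21.6 kb from the gene of S-adenosylhomocysteine hydrolase. It had 25.3 and 40.7 RPKM in Dex, against 21.3 and 31.5 in Vehicle, so the groups overlapped (0.33 ± 0.36, edgeR adjusted p = 0.587). The Slc25a51 region, near the gene of the mitochondrial NAD transporter, had 18.7 and 22.6 RPKM in Dex, against 8.25 and 8.28 in Vehicle, and rose (1.32 ± 0.45, edgeR adjusted p = 0.0378). The regions near Jade2 (0.89), Errfi1 (0.40) and Arl4a (0.70) did not pass. The calls at Ddit4 and Slc25a51 were both lost when any 1 of the 4 libraries was left out, and the Ddit4 value then lay between 1.43 and 2.02.

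The sequences of the regions with the largest rises are shown next, since their best GRE matches differed from the consensus at 3 to 5 bases. Each is the 200 bp about the centre, plus strand of GRCm38 (RefSeq), and capitals mark any full match to the GRE, to the GR half-site TGTTCT, to the FOXA motif TGTTTAC, to the HNF4A motif CAAAGTCC, to the C/EBP motif (TTGC, 2 bases, AA), to the STAT5 motif (TTC, 3 bases, GAA), to the AP-1 motif (TGA, 1 base, TCA), to the NFI motif (TTGGC, 5 bases, GCCAA) or to the E-box CACGTG, on either strand.
Rbx1, chr15:81523338-81523537: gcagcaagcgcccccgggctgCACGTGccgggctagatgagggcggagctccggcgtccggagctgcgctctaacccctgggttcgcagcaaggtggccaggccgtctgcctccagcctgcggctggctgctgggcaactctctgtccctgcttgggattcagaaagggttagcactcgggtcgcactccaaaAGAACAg
Gadd45g, chr13:51866179-51866378: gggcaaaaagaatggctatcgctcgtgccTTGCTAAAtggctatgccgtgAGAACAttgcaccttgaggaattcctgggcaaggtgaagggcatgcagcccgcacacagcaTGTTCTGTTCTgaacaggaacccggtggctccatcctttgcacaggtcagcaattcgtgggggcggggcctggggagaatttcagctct
Adgrf1, chr17:43257783-43257982: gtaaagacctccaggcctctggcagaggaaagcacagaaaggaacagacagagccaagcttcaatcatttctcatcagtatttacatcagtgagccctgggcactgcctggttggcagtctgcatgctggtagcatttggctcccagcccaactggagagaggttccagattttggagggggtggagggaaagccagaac
Slc25a48, chr13:56434480-56434679: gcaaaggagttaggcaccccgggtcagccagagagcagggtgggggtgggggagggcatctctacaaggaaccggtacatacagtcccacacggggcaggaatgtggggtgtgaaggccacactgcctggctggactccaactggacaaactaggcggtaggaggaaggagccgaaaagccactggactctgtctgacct

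The Rbx1 window held an E-box and 1 half-site, and the Gadd45g window 1 C/EBP match and 3 half-sites, of which a pair overlap by 1 base. The Adgrf1 and Slc25a48 windows held none of the 9 motifs. A match is a description of letters, and its absence says only that these letters are not in the window.

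GR signal at the intergenic regions was higher after dexamethasone, by a median fold of 1.59. Median signal was 4.87 and 6.43 RPKM in Dex, against 3.08 and 3.87 RPKM in Vehicle. At 731 regions each Dex library exceeded each Vehicle library (65.2%, against 51.5% of all shared regions) and at 25 each lay below both (against 4.78% of all shared regions). In the edgeR quasi-likelihood test over all 5665 shared regions, with Benjamini-Hochberg adjustment and a threshold of 0.05, 222 of the 1122 regions were higher in Dex and 0 lower, against 11.8% of all shared regions called higher. At an unadjusted p under 0.05 edgeR gave 491 higher and 2 lower, and DESeq2 called 96 higher and 3 lower at the adjusted threshold, among the 631 intergenic regions to which its filter on low counts left an adjusted p. Of the 222, 73 had none there. Among the 222 the median fold was 2.42, and 1016 of the 1122 had a positive log2 fold change (90.6%, against 80.1% of all shared regions). The 222 calls fell to 1 on leaving out Dex replicate 2, to 24 and 37 on leaving out Vehicle replicate 1 or 2, and to 106 on leaving out Dex replicate 1. In such a fit the lone library of a group is assumed to vary like the other group.

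The size of the change depended on the scale set between libraries. The median log2 fold change was 0.67 over the intergenic regions and 0.43 over all shared regions with library totals as the scale. With TMM scaling the medians were 0.20 and -0.04, with the reads in shared regions as library size 0.12 and -0.12, and with DESeq2 0.21 and -0.02. A change of scale moves all regions by about the same amount. The share of intergenic regions with a positive log2 fold change was 65.1% with TMM scaling, 59.4% with the reads in shared regions and 66.04% with DESeq2, against 47.0%, 41.7% and 48.2% of all shared regions. With TMM scaling 114 intergenic regions were higher and 7 lower, and over all shared regions 334 were higher and 101 lower, against 666 and 0 with library totals (23 lower at an unadjusted p under 0.05, and 28 lower with DESeq2). Spike-in chromatin was added to the reactions, but no scaling factor is given in the sources used here, so the scale cannot be set independently.

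Shared introns had a median fold change close to that of the intergenic regions and coding promoters a lower one, as the plot of fold changes by location shows. Introns held 1665 shared regions with a median log2 fold change of 0.65, and 264 of them were higher (15.9%). Promoters of protein-coding genes held 2059 with a median of 0.13, and 57 were higher (2.77%). The 343 shared intergenic regions beyond 100 kb had a median of 0.64, with 65 higher (19.0%). In each of the 4 Dex by Vehicle library pairs the median of the intergenic regions exceeded that of all promoter regions, by 0.37 for Dex 1 over Vehicle 1, 0.36 for Dex 1 over Vehicle 2, 0.67 for Dex 2 over Vehicle 1 and 0.64 for Dex 2 over Vehicle 2. It exceeded the intron median by 0.01 to 0.03. Coding promoter regions also had less signal, with a median of 2.71 and 2.84 RPKM in Dex, against 2.35 and 3.01 in Vehicle. The intergenic medians were 4.87 and 6.43 RPKM in Dex, against 3.08 and 3.87 in Vehicle. Median reads per coding promoter region were 156 and 169 in Dex, against 232 and 307.5 per intergenic region. The part of the signal level in the fold changes and calls was not tested. These differences between locations were not tested.

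**Figure D1:**
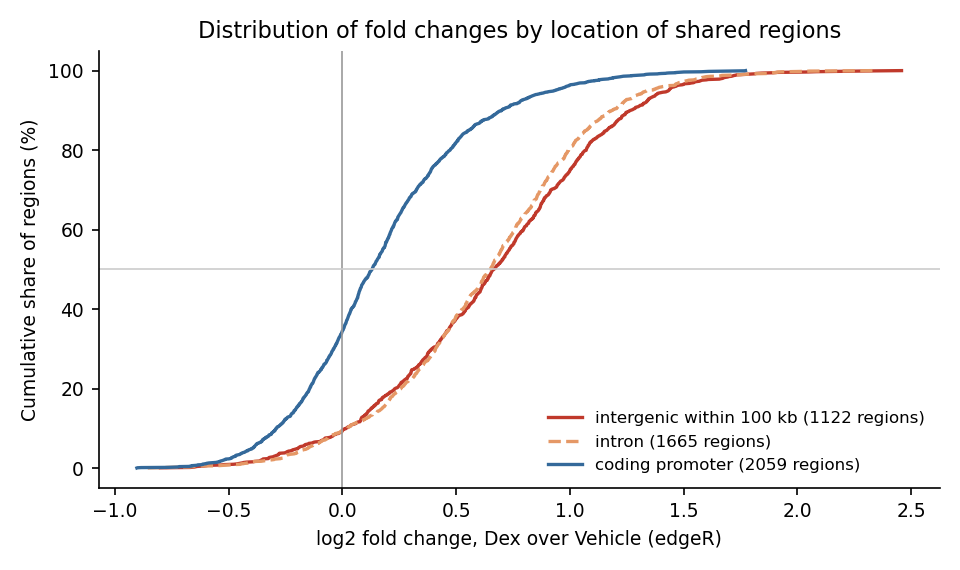
Cumulative share of shared GR regions (%, vertical axis) by log2 fold change of Dex over Vehicle (edgeR, horizontal axis), for intergenic regions within 100 kb of a TSS, introns and coding promoters. The intergenic and intron curves cross the 50% line at 0.67 and 0.65, and the coding promoter curve at 0.13.

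Dexamethasone regions were wider than their vehicle counterparts, with a median width of 702.5 bp against 456 bp and a median ratio of 1.45. RPKM averages over the width, and the edgeR fold change does so too, since its offset holds the width. Both therefore compare reads per base, and signal in a wider dexamethasone region is averaged over more bases. The centres of a pair lay a median of 42 bp apart, and 852 pairs (75.9%) had centres within 100 bp. Among the 287 pairs of closely matched width, 92 were higher (32.1%, against 19.8% of all such shared regions) and the median log2 fold change was 0.78. Without the width offset 903 regions were called higher and 3 lower.

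The intergenic regions had few CpG dinucleotides, with a median of 1.33 per 100 bp, against 6.34 in coding promoter regions. The median GC content of the intergenic regions within 100 kb was 49.6%, against 49.4% in shared introns, and a median of 10.1% of their bases was repeat-masked. In 55 regions at least 50% of the bases were repeat-masked, and without them 215 of 1067 were higher, with a median log2 fold change of 0.68.

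The 10 largest rises were taken among regions past the threshold with dexamethasone signal above the median of the set and both Dex libraries above both Vehicle libraries, so that their groups do not overlap by choice. The plot of signal per library shows 9 of them. The largest rise lay at 56.8 kb from the TSS of Rbx1, a RING subunit of cullin ubiquitin ligases (chr15:81523163-81523712, mm10). That region had 12.04 and 19.9 RPKM in Dex, against 3.04 and 2.72 in Vehicle, a log2 fold change of 2.46 ± 0.45 (SE; edgeR adjusted p = 4.49e-05). The acetyltransferase gene Ep300 is the next protein-coding gene to it. The region at 19.6 kb from Gadd45g, a growth arrest and DNA damage-inducible gene, had 13.1 and 18.7 RPKM in Dex, against 2.87 and 3.65 in Vehicle (2.30 ± 0.48, edgeR adjusted p = 0.000530). Its 2 neighbours near the same gene, at 26.3 and 56.4 kb, had log2 fold changes of 0.99 and 0.74 and did not pass.

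The region at -12.4 kb from Adgrf1, which encodes an adhesion G protein-coupled receptor, had 5.94 and 5.81 RPKM in Dex, against 1.17 and 1.497 in Vehicle (2.19 ± 0.36, edgeR adjusted p = 5.10e-06). Its level in Dex was the lowest of the 10, and so was its level in Vehicle. The region at -3.8 kb from Slc25a48, a mitochondrial carrier gene, had 9.84 and 14.9 RPKM in Dex, against 2.39 and 3.60 in Vehicle (2.08). The region at -43.4 kb from Enpp2, which encodes autotaxin, had 7.46 and 13.3 RPKM in Dex, against 2.81 and 2.14 in Vehicle (2.04).

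The region near Mchr1, a receptor gene for melanin-concentrating hormone, had 10.4 and 14.95 RPKM in Dex, against 3.08 and 3.70 in Vehicle (1.91). The region near the Mediator subunit gene Med18 had 9.47 and 12.9 RPKM in Dex, against 2.95 and 3.09 in Vehicle (1.89). The stress-response gene Sesn2 is the next protein-coding gene to it. The region near Arrdc2, an arrestin domain gene, had 13.99 and 20.7 RPKM in Dex, against 4.52 and 5.18 in Vehicle (1.84). The region near Ube2e1, a ubiquitin-conjugating enzyme gene, had 6.84 and 11.3 RPKM in Dex, against 2.28 and 2.94 in Vehicle (1.82). All 10 kept their call with TMM scaling (log2 fold changes of 1.32 to 1.92). DESeq2 called 9 of them and gave the Adgrf1 region no adjusted p. Without Dex replicate 2, Adgrf1 alone stayed past the threshold (log2 fold changes of 1.41 to 2.20 over the 10). Without Vehicle replicate 1 the 3 regions at Enpp2, Rbx1 and Adgrf1 stayed, and without Vehicle replicate 2 there were 6.

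**Figure D2:**
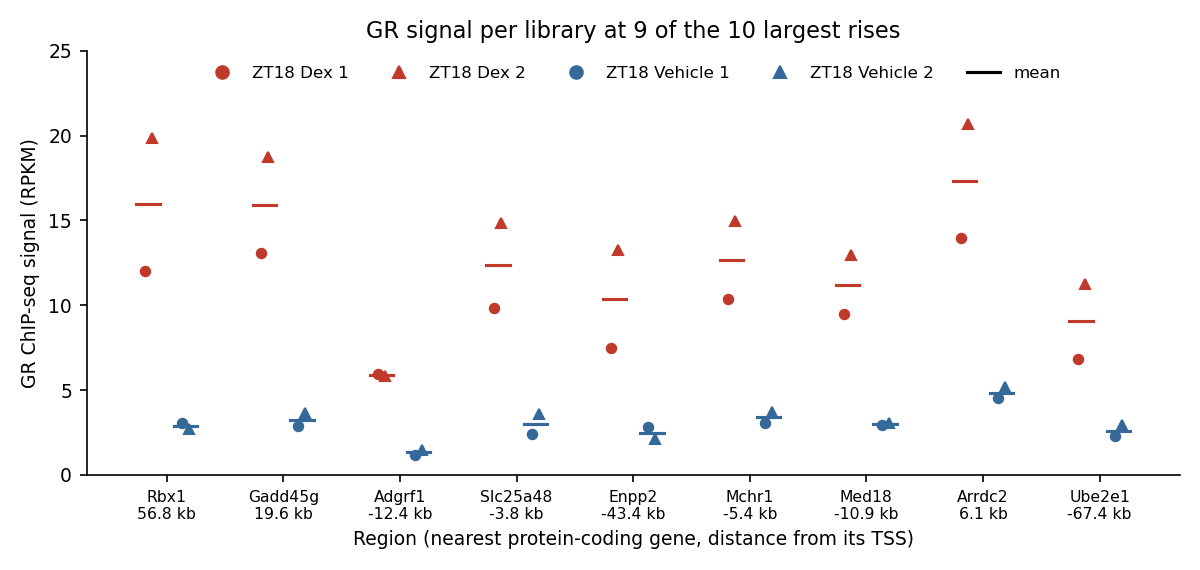
GR ChIP-seq signal (RPKM, vertical axis) in each library at 9 of the 10 intergenic regions with the largest rises, named by the nearest protein-coding gene and the distance from its TSS (horizontal axis). Circles and triangles are replicates 1 and 2, and bars are means. The regions were chosen with both Dex libraries above both Vehicle libraries, and the Rbx1 region stands at 12.04 and 19.9 in Dex, against 3.04 and 2.72 in Vehicle.

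Of the 10 regions with most signal in Vehicle, 0 passed as higher or lower in edgeR (1 was higher at an unadjusted p under 0.05, and DESeq2 called 2 lower, near Ptpn1 and Slc45a1), and of the 10 with most signal in Dex 3 were higher, near Poc1a, Ptpn1 and Rxra. Both sets were ranked on signal that enters the fold change. A choice by Vehicle signal favours low fold changes and one by Dex signal high ones, so these counts are not compared. The strongest region in both sets lay at 24.9 kb from Ly6c2, a gene of a lymphocyte antigen 6 surface protein. It had 97.5 and 88.5 RPKM in Dex, against 77.0 and 82.0 in Vehicle (0.23 ± 0.29, edgeR adjusted p = 0.642). A second region 26.0 kb from that gene had 25.8 and 22.7 RPKM in Dex, against 23.9 and 25.6 in Vehicle, and 100% of its bases were repeat-masked. In this second region the groups overlapped. The region near Eif4enif1, which encodes a transporter of the translation factor eIF4E, had 68.5% of its bases repeat-masked. It had 15.9 and 16.9 RPKM in Dex, against 18.3 and 18.6 in Vehicle, with both Dex libraries below both Vehicle libraries (-0.17 ± 0.39, edgeR adjusted p = 0.816). The region near the lipin gene Lpin1, at -7.8 kb, had 16.3 and 25.6 RPKM in Dex, against 8.93 and 18.4 in Vehicle (0.63 ± 0.40, edgeR adjusted p = 0.292). Of the strong regions in Dex, that near Poc1a, a centriole protein gene beside the heme synthesis gene Alas1, had 18.9 and 35.2 RPKM in Dex, against 5.97 and 16.5 in Vehicle and rose (1.29 ± 0.45, edgeR adjusted p = 0.0433). The Poc1a call was lost with TMM scaling and without any 1 library.

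No intergenic region passed the test as lower in Dex. The lowest value was at -25.1 kb from Abhd2, a lipase gene, with 2.99 and 1.84 RPKM in Dex, against 4.29 and 4.10 in Vehicle (-0.80 ± 0.33, edgeR adjusted p = 0.0812). The next were near Tcim (-0.67), Slc45a1 (-0.65), Asmt (-0.65) and Snx5 (-0.64), with adjusted p of 0.155, 0.296, 0.193 and 0.223 in the edgeR fit. In the Asmt region 89.03% of the bases were repeat-masked. With TMM scaling the regions near Abhd2, Tcim and Slc45a1 were called lower. At Abhd2, Tcim, Slc45a1 and Asmt the dexamethasone regions were over 2 times as wide as the vehicle regions. Without the width offset the Abhd2 and Tcim regions were called higher in Dex (log2 fold changes of 0.71 and 1.29).

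GRE-like sequence was more frequent in the windows about the centres than in their flanks. A match with at most 2 mismatches stood in 62 windows (5.53%), against 36 of 2244 flank windows (1.604%), and with at most 1 mismatch in 17 (1.52%), against 2 (0.0891%). With at most 3 mismatches the shares were 20.8% and 16.2%. The share with at most 2 mismatches was 6.37% in shared intron regions, 1.46% in shared coding promoter regions, 4.48% in the 5445 dexamethasone regions of the same location with no vehicle region, and 3.88% in all dexamethasone regions with a full window. In the 100 bp about the centre it was 3.03%, and in the whole dexamethasone region 13.5%.

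**Figure D3:**
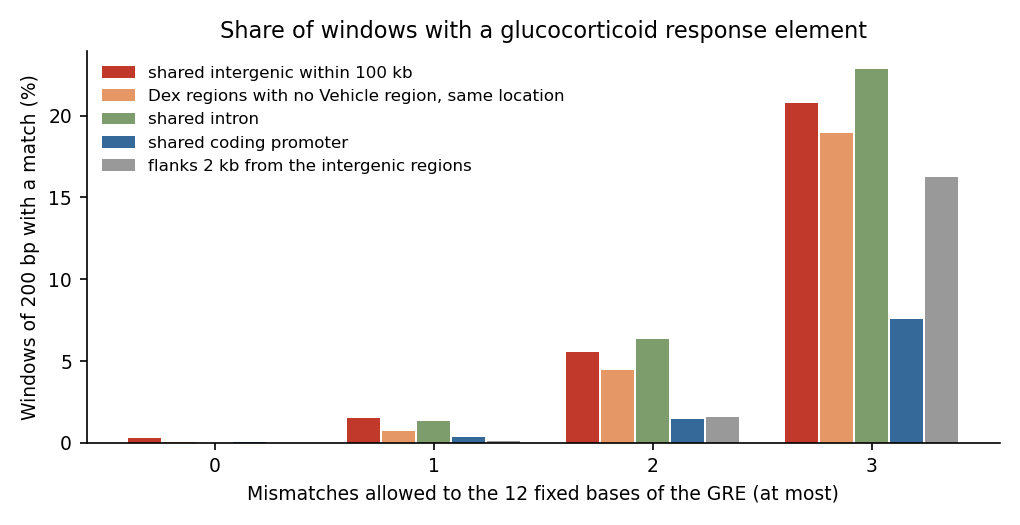
Share of 200 bp windows (%, vertical axis) with a match to the GRE at 0 to 3 mismatches allowed (horizontal axis), by set of windows. At 2 mismatches the shared intergenic regions stand at 5.53%, the regions of the same location without a vehicle region at 4.48%, shared introns at 6.37%, shared coding promoters at 1.46% and the flanks at 1.604%.

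Regions with a closer GRE match had the higher median signal. The 17 with 0 or 1 mismatch had a median of 8.58 and 11.8 RPKM in Dex, against 4.79 and 8.08 in Vehicle, and the 439 with 5 or more mismatches 4.63 and 5.97 RPKM in Dex, against 3.03 and 3.84 in Vehicle. Of the 17, 6 were higher (35.3%), with a median log2 fold change of 0.79. At 2 mismatches 10 of 45 were higher (22.2%, median 0.80), at 3 mismatches 44 of 171 (25.7%, 0.75), at 4 mismatches 96 of 450 (21.3%, 0.65) and at 5 or more 66 of 439 (15.03%, 0.64). The counts are small and the trend was not tested. Of the 6, none stayed past the threshold without Dex replicate 2 or Vehicle replicate 1, 1 stayed when either of the other libraries was left out, and 5 stayed with TMM scaling.

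Motifs of hepatocyte factors were also more frequent at the centres than in the flanks. The HNF4A motif stood in 57 windows (5.08%), against 1.29% of flank windows, the C/EBP motif in 161 (14.3%), against 7.98%, and the FOXA motif in 57 (5.08%), against 2.90%. The GR half-site, which every full GRE contains on both strands, stood in 260 (23.2%), against 16.4%. The STAT5 motif stood in 8.20%, against 5.79%, the E-box in 3.92%, against 2.01%, the AP-1 motif in 7.75%, against 6.82%, and the NFI motif in 0.178%, against 0.0446%. In all dexamethasone regions the shares were lower for HNF4A (2.82%), C/EBP (13.1%), FOXA (4.32%), the half-site (19.2%), STAT5 (6.68%), AP-1 (6.09%) and NFI (0.0383%) and higher for the E-box (4.34%). In shared introns they were higher for C/EBP (17.1%), FOXA (5.95%), the half-site (24.2%), STAT5 (9.37%) and the E-box (4.38%) and lower for HNF4A (4.20%), AP-1 (6.49%) and NFI (0%). With the C/EBP motif the median log2 fold change was 0.81, against 0.64 in regions without it, and regions with the HNF4A motif 0.61, against 0.67. The regions with an HNF4A motif were called higher in 15.8%, against 20% of those without. These differences were not tested.

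The regions lay at a median of 23.9 kb from the nearest protein-coding TSS. There were 799 on its upstream side (71.2%), of which 168 were higher (21.03%), and 323 downstream, of which 54 were higher (16.7%), against 19.8% of all the intergenic regions. The set leaves out centres inside transcripts, and so positions just downstream of a TSS. The upstream majority is therefore favoured by the selection and is not read as a trait of GR binding. Across distances the median log2 fold change lay between 0.61 and 0.70. It was 0.65 within 5 kb (78 regions), 0.68 from 5 to 10 kb (142), 0.70 from 10 to 25 kb (360), 0.67 from 25 to 50 kb (264) and 0.61 from 50 to 100 kb (278). Just inside 100 kb were regions near Cd180 at -99.9 kb (4.08 and 5.09 RPKM in Dex, against 2.19 and 2.66 in Vehicle) and Max at -99.4 kb (6.19 and 7.44 RPKM in Dex, against 3.32 and 5.14 in Vehicle). Just outside were regions near Foxa2 at 101.4 kb (5.22 and 10.2 RPKM in Dex, against 2.57 and 7.56 in Vehicle) and Ankrd46 at 101.8 kb (7.28 and 10.7 RPKM in Dex, against 3.86 and 4.44 in Vehicle).

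The 1122 regions had 866 nearest genes, of which 682 had 1 region, 184 had 2 or more and 5 had 5 or more. The 222 higher regions were nearest to 206 genes. Estimated fold changes of regions close together were not always alike, as the plot of fold changes at 6 loci shows. The SE of a single region (0.34 to 0.46 at the named Ptpn1 regions) was of the size of the median differences given next. Whether neighbours differ was not tested. Neighbouring regions within 5 kb of each other differed by a median of 0.29 in log2 fold change (56 pairs), those 5 to 25 kb apart by 0.42 (152), those 25 to 100 kb apart by 0.38 (132) and those further apart by 0.48 (762).

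Neighbouring regions with unlike values lay between the genes of the transcription factor C/EBP beta (Cebpb) and the phosphatase PTP1B (Ptpn1). At -87.7 kb from the Ptpn1 TSS the signal was 25.9 and 38.1 RPKM in Dex, against 29.7 and 52.0 in Vehicle (-0.35 ± 0.34, edgeR adjusted p = 0.522). At -80.6 kb it was 20.3 and 33.7 RPKM in Dex, against 10.4 and 15.99 in Vehicle (1.04 ± 0.45, edgeR adjusted p = 0.0986). At -78.7 kb it was 18.2 and 26.2 RPKM in Dex, against 6.36 and 7.79 in Vehicle, and rose (1.66 ± 0.46, edgeR adjusted p = 0.0112). In the first of the 3 the groups overlapped, and in the other two they did not. The call at -78.7 kb held with TMM scaling (1.18) and was lost without any 1 library.

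Albumin (Alb), the main secreted protein of hepatocytes, had 5 upstream regions, of which 4 rose. The region at -13.1 kb had 6.16 and 7.40 RPKM in Dex, against 3.15 and 2.34 in Vehicle (1.29 ± 0.40, edgeR adjusted p = 0.0227), and that at -35.8 kb 4.89 and 8.005 RPKM in Dex, against 2.85 and 2.40 in Vehicle (1.29 ± 0.44, edgeR adjusted p = 0.0351). The regions at -29.6 and -10.8 kb rose by 1.47 and 0.93, and that at -21.5 kb was at 0.38 and did not pass. At -29.6 kb Vehicle replicate 2 held only 6 reads, with 2.40 and 3.78 RPKM in Dex, against 1.62 and 0.331 in Vehicle, and the log2 fold change was 3.20 without Vehicle replicate 1 and 0.93 without Vehicle replicate 2. At -10.8 kb the 2 Dex libraries differed most, with 3.38 and 9.35 RPKM in Dex, against 3.41 and 3.22 in Vehicle, so the groups overlapped, and without Dex replicate 2 the log2 fold change was 0.02. None of the 4 calls held with TMM scaling, shared-region scaling or without Dex replicate 2, while 2 held without Dex replicate 1, and leaving out Vehicle replicate 1 or 2 left 1 or 0.

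Slc45a1 had 5 regions on the side of Errfi1, a feedback inhibitor of EGF receptor signalling. The region at -74.0 kb had 10.04 and 12.3 RPKM in Dex, against 3.81 and 4.52 in Vehicle and rose (1.44 ± 0.42, edgeR adjusted p = 0.0143), as did that at -97.0 kb (1.24 ± 0.40, adjusted p = 0.0259). The region at -33.4 kb had 9.39 and 14.3 RPKM in Dex, against 13.5 and 23.9 in Vehicle, with overlapping groups and a log2 fold change of -0.65 ± 0.42. Its dexamethasone region was 1216 bp wide, against 486 bp for the vehicle region. Errfi1 itself was nearest to 4 regions, none of which passed in edgeR or DESeq2 (1 was higher at an unadjusted p under 0.05 in edgeR). The highest of them by fold, at -53.8 kb, had 14.6 and 19.2 RPKM in Dex, against 7.35 and 8.33 in Vehicle (1.11 ± 0.45, edgeR adjusted p = 0.0797). Fam214a had 5 regions, of which that at -22.9 kb had 13.3 and 21.6 RPKM in Dex, against 4.99 and 8.59 in Vehicle and rose (1.37 ± 0.45, edgeR adjusted p = 0.0284), as did that at -41.5 kb (0.99). The calls at Slc45a1 and Fam214a were all lost without any 1 library, and with TMM scaling 1 held at each.

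Sik1, a salt-inducible kinase gene, had 5 regions, with log2 fold changes of 0.10 to 1.06, and none passed in edgeR or DESeq2 (3 were higher at an unadjusted p under 0.05 in edgeR). The strongest, at -84.9 kb, had 11.7 and 10.8 RPKM in Dex, against 4.52 and 6.35 in Vehicle (edgeR adjusted p = 0.0911). Pik3r1, which encodes the p85 alpha subunit of phosphoinositide 3-kinase, had 6 regions, the most of any gene, at 0.06 to 0.92, and none passed in edgeR or DESeq2 (2 were higher at an unadjusted p under 0.05 in edgeR). Its strongest region in Dex, at -80.2 kb, had 7.61 and 8.46 RPKM in Dex, against 3.09 and 5.52 in Vehicle.

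**Figure D4:**
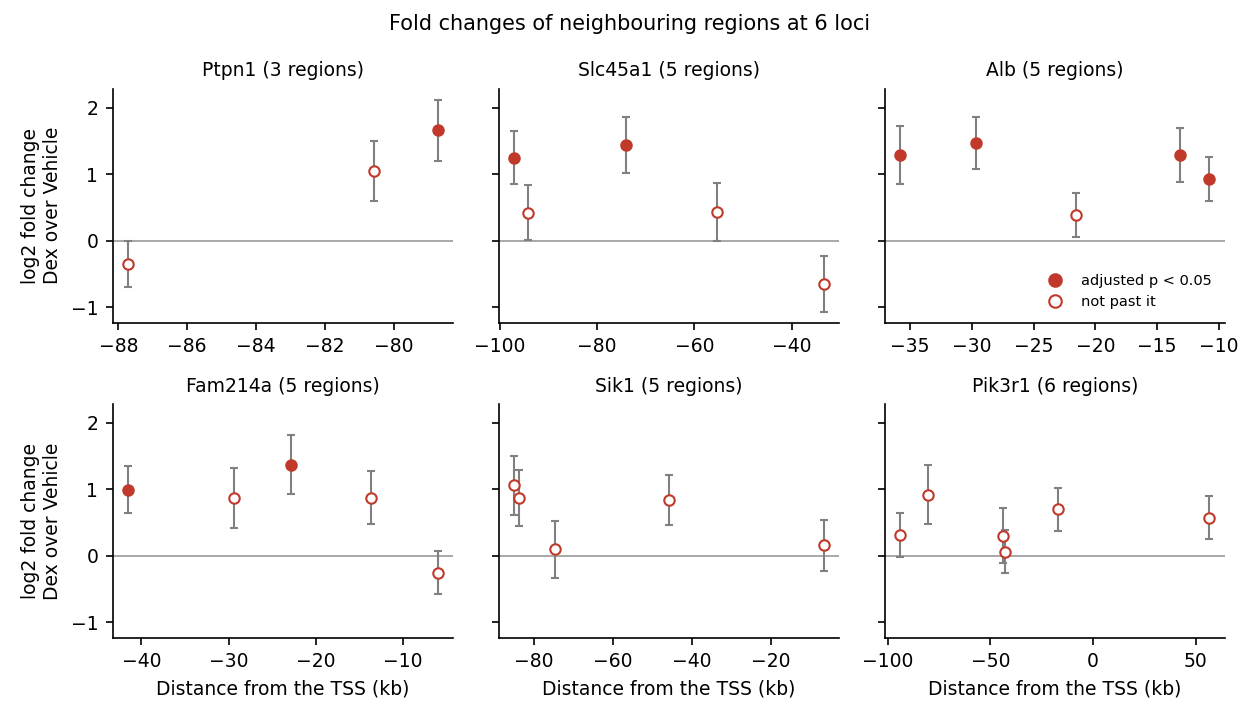
log2 fold change of Dex over Vehicle (edgeR, vertical axis, bars are SE) against distance from the TSS (kb, horizontal axis) for each intergenic region at 6 loci, with filled points for an adjusted p under 0.05. Ptpn1 runs from -0.35 to 1.66, 4 of 5 Alb regions are filled, and none is filled at Sik1 or Pik3r1.

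Gene lists were read against the 11.8% of all shared regions and the 19.8% of the intergenic regions called higher, and some genes belong to more than 1 list. Of 30 direct glucocorticoid targets, 11 were nearest to 27 intergenic regions, of which 7 were higher, in Ddit4, G6pc, Gadd45g, Irs2 and Tat (median log2 fold change 0.74). The second Ddit4 region, at -18.2 kb next to the one with the full GRE, had 18.02 and 25.5 RPKM in Dex, against 6.86 and 15.4 in Vehicle and did not pass (0.98 ± 0.44, edgeR adjusted p = 0.114). Tat encodes tyrosine aminotransferase, the first enzyme of tyrosine breakdown. It had 3 regions, and that at -2.5 kb had 11.2 and 18.02 RPKM in Dex, against 4.23 and 6.79 in Vehicle (1.44 ± 0.43, edgeR adjusted p = 0.0176). That at -10.8 kb rose as well, with 9.35 and 11.01 RPKM in Dex, against 3.79 and 5.60 in Vehicle (1.15 ± 0.38, edgeR adjusted p = 0.0296), while that at 13.99 kb was at 0.39 and did not pass. With TMM scaling 3 of the 7 calls held, in Ddit4, Gadd45g and Tat. None held without Dex replicate 2 or Vehicle replicate 1, 2 held without Dex replicate 1 and 1 without Vehicle replicate 2.

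Genes of amino acid breakdown and the urea cycle had 12 regions near 6 of 22 genes, of which 6 were higher (median log2 fold change 0.93), near Aass, Ass1, Gpt2 and Tat. The region near Ass1, the argininosuccinate synthase gene, had 13.5 and 17.1 RPKM in Dex, against 4.83 and 6.55 in Vehicle (1.43 ± 0.46, edgeR adjusted p = 0.0257). The region near the alanine transaminase gene Gpt2 had 11.8 and 13.8 RPKM in Dex, against 4.71 and 4.92 in Vehicle (1.41 ± 0.44, edgeR adjusted p = 0.0236). The region near Cps1, which encodes the carbamoyl phosphate synthase of the urea cycle, had 9.35 and 15.4 RPKM in Dex, against 4.56 and 9.16 in Vehicle and did not pass (0.87 ± 0.45, edgeR adjusted p = 0.180). With TMM scaling 4 of the 6 calls held, 0 when replicate 2 of either group was left out, 1 when Vehicle replicate 1 was and 3 when Dex replicate 1 was.

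Genes of gluconeogenesis, glycogen and insulin response had 18 regions, of which 3 were higher, near G6pc and Irs2 (median log2 fold change 0.86). The region at -5.2 kb from G6pc, the catalytic subunit of glucose-6-phosphatase, had 12.8 and 13.5 RPKM in Dex, against 5.19 and 7.09 in Vehicle (1.12 ± 0.40, edgeR adjusted p = 0.0456). Ppp1r3b, a glycogen-targeting subunit of protein phosphatase 1, had a region at 30.7 kb with 12.4 and 15.9 RPKM in Dex, against 5.67 and 8.19 in Vehicle (1.04 ± 0.45, edgeR adjusted p = 0.101), which did not pass. None of the 3 calls held with TMM scaling or without any 1 library.

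Genes of fatty acid oxidation, ketogenesis and lipid storage had 9 regions, of which 1 was higher. Bile acid and cholesterol genes had 10 regions, of which 3 were higher. They lay near Cyp7a1, the rate-limiting enzyme of bile acid synthesis, with 4.99 and 8.73 RPKM in Dex, against 3.25 and 3.25 in Vehicle (1.08 ± 0.33, edgeR adjusted p = 0.0201). The others lay near Abcb4, the canalicular phospholipid exporter (1.55 ± 0.43, edgeR adjusted p = 0.0115), and Nr0b2, the nuclear receptor SHP (1.246 ± 0.42, edgeR adjusted p = 0.0366). With TMM scaling the Abcb4 and Nr0b2 calls held, and none of the 3 held without Dex replicate 2 or either Vehicle library, while Cyp7a1 held without Dex replicate 1.

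Stress, growth arrest and survival genes had 11 regions, of which 4 were higher, near Ddit4, Gadd45g, Trp53inp1 and Txnip (median log2 fold change 0.98). The region at -9.1 kb from Trp53inp1, a p53-inducible gene, had 9.67 and 13.5 RPKM in Dex, against 4.13 and 3.73 in Vehicle (1.56 ± 0.44, edgeR adjusted p = 0.0119). That near Txnip, a thioredoxin-binding protein gene, had 9.04 and 11.2 RPKM in Dex, against 3.52 and 4.96 in Vehicle (1.27 ± 0.43, edgeR adjusted p = 0.0346). The 4 calls held with TMM scaling, and none held without Dex replicate 2 or Vehicle replicate 1. Gadd45g alone held without Dex replicate 1 and without Vehicle replicate 2.

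Of 10 acute phase regions 1 was higher, near the serum amyloid gene Saa1, with 11.9 and 14.9 RPKM in Dex, against 5.34 and 5.92 in Vehicle (1.253 ± 0.45, edgeR adjusted p = 0.0467). Of 14 regions near hepatocyte transcription factor genes 1 was higher, at -52.1 kb from Rxra, the retinoid X receptor alpha gene, with 20.5 and 35.1 RPKM in Dex, against 11.1 and 13.2 in Vehicle (1.196 ± 0.43, edgeR adjusted p = 0.0465). Both were lost without any 1 library. The Saa1 call held with TMM scaling, and the Rxra call did not. Among secreted hepatocyte proteins 4 of 9 regions were higher, all near Alb. The median log2 fold change was 0.73 over the fatty acid list, 0.72 over the bile acid list, 0.56 over the acute phase list and 0.81 over the secreted proteins. It was 0.52 over the hepatocyte factors, and turned to -0.0033 with reads in shared regions as library size.

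Clock genes were nearest to 3 intergenic regions, and none passed (edgeR; the count was also 0 with DESeq2 and, at an unadjusted p under 0.05, was 2). The region at 20.02 kb from Tef, a PAR bZIP factor gene under clock control, had 11.6 and 16.9 RPKM in Dex, against 5.16 and 8.45 in Vehicle (1.08 ± 0.45, edgeR adjusted p = 0.0853). That near Npas2, a partner of BMAL1, had 5.72 and 5.75 RPKM in Dex, against 3.70 and 2.67 in Vehicle (0.82 ± 0.37, edgeR adjusted p = 0.120). That near Bhlhe40, a repressor of clock-driven transcription, had 2.79 and 3.84 RPKM in Dex, against 2.11 and 4.23 in Vehicle (0.11 ± 0.34, edgeR adjusted p = 0.864), and its groups overlapped.

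Markers of other liver cell types were looked up among the 866 nearest genes. The share of all protein-coding genes with such a region was not computed, so the marker counts are not read as few or many. Of 15 Kupffer cell and macrophage markers only Ptprc, of 20 endothelial and stellate markers only Stab2, and of 10 cholangiocyte markers only Sox9 was nearest to one. The region at -24.8 kb from Stab2, a scavenger receptor gene of sinusoidal endothelium, had 5.76 and 6.53 RPKM in Dex, against 2.15 and 2.33 in Vehicle and rose (1.46 ± 0.38, edgeR adjusted p = 0.00691). The call held with TMM scaling and without Dex replicate 1 and was lost without any other library. The Ptprc region (0.61) and the 2 Sox9 regions (0.42 and 0.47) did not pass. The part of other cell types in the signal was not tested.

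Within a library, signal at an intergenic region can be set against that at the promoter of the same gene, a ratio that the library's scale does not change. At 168 genes with both, the strongest intergenic region was divided by the strongest shared promoter region. Each was chosen by its mean Dex RPKM, which can favour high Dex values on either side of the ratio. The median log2 ratio was 0.36 and 0.52 in Dex, against 0.15 and 0.14 in Vehicle. Both Dex ratios exceeded both Vehicle ratios at 78 genes and fell below both at 22. The intergenic region had the larger fold change at 118 of the 168, and 44 intergenic regions were higher, against 8 promoter regions, with both higher at 4 genes. Med18, chosen from the largest rises, lies well beyond these medians, with log2 ratios of 1.87 and 2.34 in Dex, against 0.20 and 0.15 in Vehicle. Its intergenic region had 9.47 and 12.9 RPKM in Dex, against 2.95 and 3.09 in Vehicle. Its promoter region had 2.60 and 2.56 RPKM in Dex, against 2.57 and 2.79 in Vehicle. The regions of each gene were also chosen by mean Vehicle RPKM. Both Dex ratios then exceeded both Vehicle ratios at 72 genes and fell below both at 23. Widths differ between sets at both kinds of region, and their part in this ratio was not tested.

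**Figure D5:**
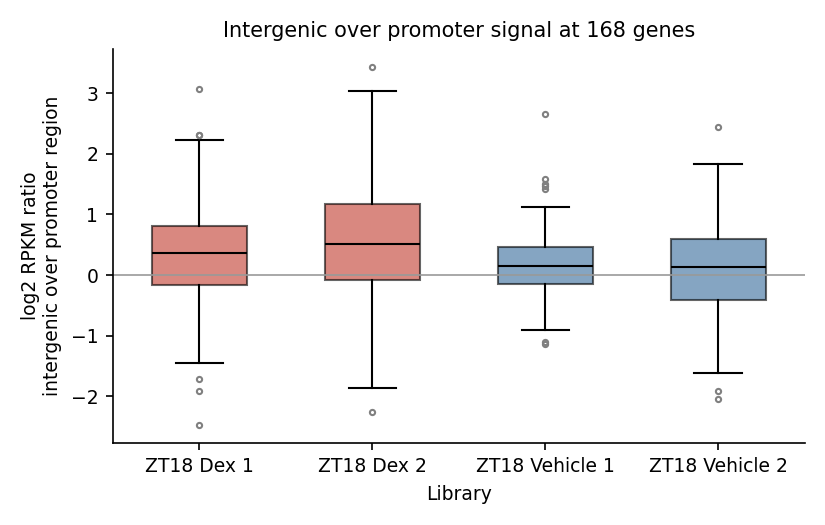
log2 ratio of RPKM at the strongest intergenic region to the strongest shared promoter region of the same gene (vertical axis) in each library (horizontal axis), for 168 genes. Each region was chosen by its mean Dex RPKM. Boxes span the quartiles with the median as a line, whiskers reach 1.5 times that span and points lie beyond; medians are 0.36 and 0.52 in Dex and 0.15 and 0.14 in Vehicle.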

How the data were processed

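Mouse liver GR ChIP-seq libraries were placed by title in ZT18 Dex and ZT18 Vehicle, with 2 libraries each. According to the submitters' processing notes, Bowtie 1.1.0, SAMtools 1.2 and MACS2 2.1.1 were used with the build mm10. The authors called regions once per treatment, from ZT6 and ZT18 libraries together, and removed blacklisted regions. The counts deposited by the authors are whole reads per region, and the RPKM deposited by the authors is scaled by region width and library reads, from which library totals were recovered. Values of 4 ZT6 libraries (20 columns) were not used here.

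Region pairs overlapping one to one by at least 1 bp were annotated with GENCODE M21 basic. They were tested with edgeR 4.0.16 (quasi-likelihood, offset of library total times width, a minimum of 10 reads in 2 libraries, passed by all 5665 regions, Benjamini-Hochberg threshold 0.05). Prior degrees of freedom were estimated as infinite, and a region's SE comes from the trend over regions (common dispersion 0.0529) and not from its own replicates. P-values rest on the same trend, which pools the spread between these libraries over regions, and not on the spread at a single region. It is not stated whether the libraries of a group were from different animals. Exact permutation of 2 against 2 libraries could not go below p = 0.333. The test was run on simulated counts first. DESeq2 1.42.0, other scalings, widths, overlaps and windows, and each library left out were alternatives, and 1 more, reads in shared regions against library totals in the dispersion trend, was added after seeing the data.

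The regions and the 13 gene lists and 9 motifs were chosen with earlier results of these data known. Sequence came from the RefSeq GRCm38 FASTA, read with pysam 0.24.0, and region coordinates are those of the files. Named regions were the 10 largest rises with both Dex above both Vehicle libraries and Dex signal above the median, the 10 highest in Dex and in Vehicle, the 5 lowest fold changes, up to 4 per gene list by Dex signal, those of genes with 5 or more regions, those with a full GRE, and those next to the 100 kb limit. The regions near Jade2, Arl4a, Slc25a51, Txnip and the further regions of Gadd45g, Tat and Errfi1 were chosen after their values were seen. Some regions that this rule names are not reported here.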

Additional observations from a re-analysis of the deposited data

How the results depend on the processing

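The 222 intergenic regions higher in Dex became 114 with TMM scaling, 87 with reads in shared regions as library size, 96 with DESeq2 (of 631 with an adjusted p), 903 without the width offset and 92 of 287 with matched widths, and those lower became 7, 9, 3, 3 and 0. Without a library, 1 to 106 were higher and 0 lower, fewest without Dex replicate 2. Of the 222, 110 were called higher with TMM scaling too. Over all shared regions the 666 became 334, 243, 265, 3845 and 317 (of 1602) in the same order, and 3 to 323 without a library. The median log2 fold change of the intergenic regions was 0.20, 0.12 and 0.21 under the 3 other scales and 1.29 without the width offset, and 0.45 to 0.85 without a library. Its gap to the promoter regions, 0.51, was 0.36 to 0.66 without a library, 0.55 without the width offset and 0.54 with matched widths, and another scale moves both sides alike.

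The deviations of same-numbered samples had a correlation of 0.0784 across regions. This value is blind to a shift common to all regions, so it does not show whether replicate numbers pair the samples. Replicate 2 lay above replicate 1 in both groups, by a median log2 difference of 0.39 in Dex and 0.35 in Vehicle. With the replicate block 614 intergenic regions were higher and 3 lower, and 2122 over all shared regions, and the median was 0.66.

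A reciprocal overlap of 50% (229 of 934 higher), another promoter window (194 of 982), a limit of 50 kb (176 of 844), a minimum of 10 kb (174 of 902), no count minimum (222) and the added trend (208) stayed within 1.5 times the count. The share with a GRE of at most 2 mismatches was 3.03% in 100 bp, 13.5% in whole regions and 5.70% about the vehicle centre. The share with a full GRE stayed between 0.267% and 0.357%. The intergenic to promoter log2 ratio in Dex less that in Vehicle was 0.30, 0.28 with regions chosen by Vehicle signal and 0.32 within 50 kb.

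Of 34 named regions called higher, 10 lost the call with TMM scaling, 12 with the shared-region total and 33 without Dex replicate 2. Abhd2 and Tcim turned to 0.71 and 1.29 without the width offset. The cause was not tested. Medians of 53 to 307.5 reads a region limit the precision of single regions.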
